A study of Sus scrofa with 8 samples.

Results

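The 10 genes described here encode receptors and surface markers of macrophages, and they were taken as the rows of the deposited count table named CSF1R, CD68, CD14, CD163, MRC1, LYVE1, TREM2, TYROBP, GPNMB and MERTK. All 10 of the 10 names were found, each in 1 row, among 31014 genes in all. The study measured messenger RNA of heart tissue from wild-type miniature pigs given doxorubicin (n = 5) or vehicle (n = 3). Doxorubicin is an anthracycline used against cancer that is known to injure the heart, and the series title names the nuclear receptor ERRα and mitochondrial metabolism in that setting. The sources used here do not state dose, schedule, age, sex or which part of the heart was sampled. Nothing in the labels states that each sample was a different animal, and p-values therefore reflect the spread among these 8 samples alone, which may be technical.

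Macrophages of the heart take up dead cells, debris and lipid, and in the healthy organ many are long-lived resident cells that carry scavenger receptors. CSF1R is the receptor for the growth factors CSF1 and IL34 on which macrophages depend. TREM2 binds lipids and lipoproteins and signals through the adaptor TYROBP, and in mouse and human tissue TREM2 and GPNMB mark macrophages of lipid-laden or scarring tissue, while CD163, MRC1 and LYVE1 mark resident ones. In bulk tissue, more cells of a type and more RNA per cell cannot be told apart.

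Library totals ran from 17442566 to 18267178 counts after doxorubicin and from 16105242 to 17195538 counts in vehicle. Doxorubicin 5 resembled its group least: its average correlation with the rest of the group was 0.912, the remaining doxorubicin libraries had 0.941 to 0.956, and vehicle had 0.974 to 0.977. Within each group, every pair of libraries differed by more than sampling noise. Heart muscle was present in every library, since 7 cardiomyocyte markers summed to 31792 to 58500 CPM (counts scaled to library size) after doxorubicin and to 57360 to 61853 CPM in vehicle, and 1 of the 7 passed as lower (RYR2), a call lost with library size only, with no filter and with the gene density trend removed. Among all genes tested 11.3% passed as lower. MYH6 was not found under its symbol.

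After doxorubicin, TREM2, GPNMB, TYROBP, CSF1R and CD68 rose, and CD14, CD163, MRC1, LYVE1 and MERTK did not pass the test. Among the 5 that rose, the ratio of levels was lowest for CSF1R at 2.64-fold, and TREM2 went beyond all others, with 271 reads over the doxorubicin libraries against 1 read over the vehicle libraries. The share that rose was 5 of 10 genes, against 13.6% higher calls among all 14938 genes tested (24.9% called in either direction). The threshold was an adjusted p under 0.05 in edgeR's quasi-likelihood test across all genes. The count of 5 did not hold without every vehicle library: 0 of 10 passed without vehicle 1 or without vehicle 3, and 3 of 10 without vehicle 2. All genes together went the same way, with 649, 712 and 1969 calls in those fits against 3714 calls in the full one. All 10 genes passed the filter on low counts, but TREM2 did so through the doxorubicin libraries alone. The place of TREM2 among the tested genes already required a difference, so its call adds nothing to the share that rose.

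**Figure D1:**
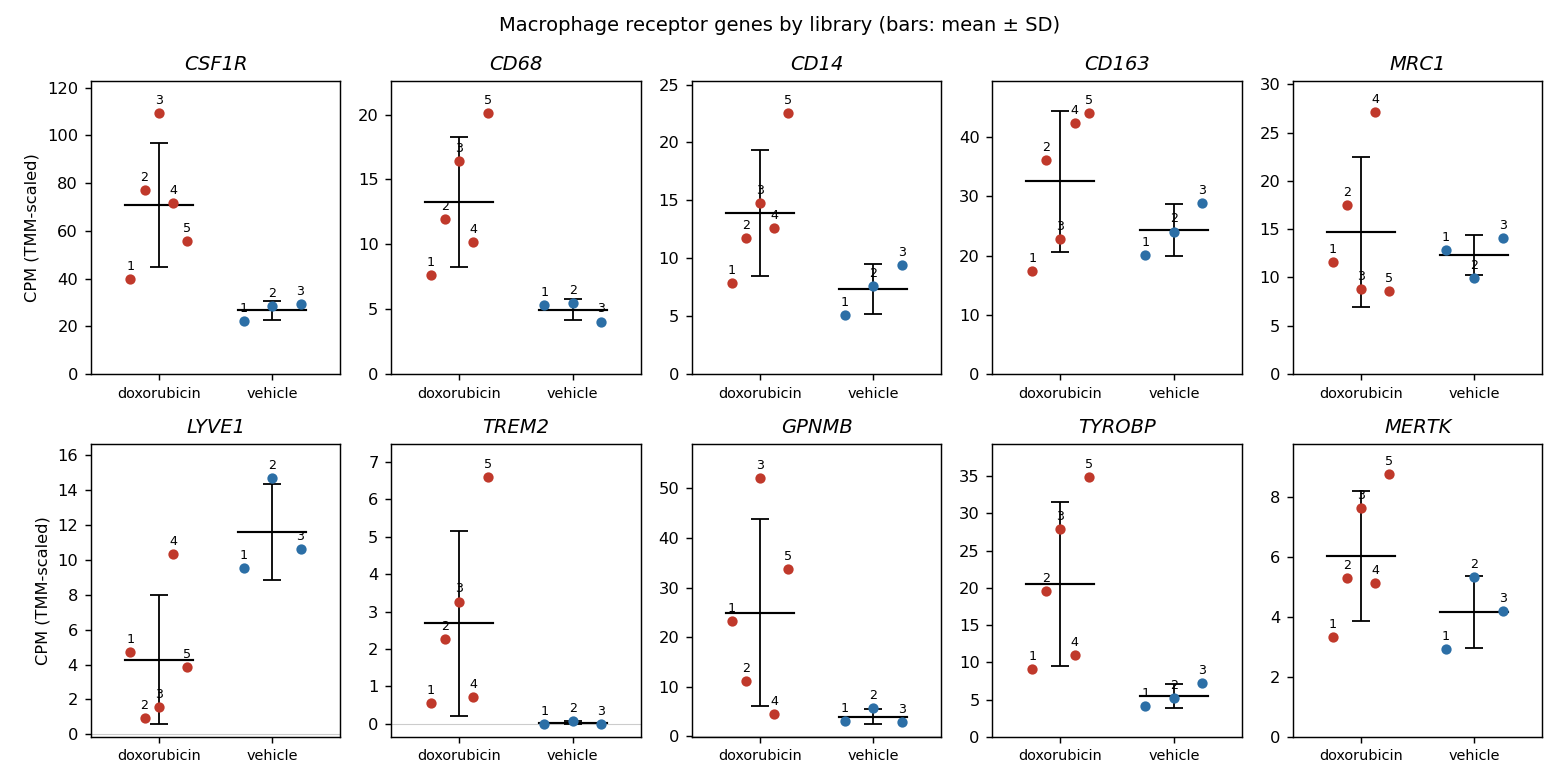
Level of each macrophage receptor gene in CPM, scaled by TMM, with doxorubicin libraries (red) left of vehicle libraries (blue), each point labelled with its replicate number and bars giving mean ± SD (n = 5 and n = 3). CSF1R, CD68, TREM2 and TYROBP show no overlap between the groups, while doxorubicin 4 lies among the vehicle libraries for GPNMB and LYVE1.

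CSF1R (chromosome 2, 151102138 to 151130311, minus strand; coordinates here and below are on Sscrofa11.1) had 39.9, 77.2, 109, 71.6 and 55.9 CPM in doxorubicin 1 to 5, against 22.3, 28.5 and 29.5 CPM in vehicle 1 to 3. All 5 doxorubicin libraries lay above all vehicle libraries, with doxorubicin 3 highest. The mean was 70.8 ± 26.0 CPM after doxorubicin and 26.8 ± 3.91 CPM in vehicle (SD, n = 5 and n = 3), a log2 fold change of 1.40 (SE 0.30, edgeR adjusted p = 0.0132). Such separation toward higher values was seen for 17.1% of all genes tested. CD68 (chromosome 12, 52874754 to 52877256), a lysosomal membrane protein of phagocytes, had 7.64, 11.97, 16.4, 10.2 and 20.1 CPM in doxorubicin 1 to 5, against 5.36, 5.48 and 4.05 CPM in vehicle 1 to 3. Here too every doxorubicin library was above every vehicle library, with doxorubicin 5 highest. CD68 rose 2.67-fold (log2 fold change 1.42, SE 0.33, edgeR adjusted p = 0.0162), though its call was lost once the dependence on gene density had been taken out of each library (log2 fold change 0.86, edgeR adjusted p = 0.0663).

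CD14 (chromosome 2, 142348036 to 142349686), a co-receptor that hands bacterial lipopolysaccharide to TLR4, had 7.86, 11.7, 14.8, 12.6 and 22.6 CPM in doxorubicin 1 to 5, against 5.07, 7.63 and 9.39 CPM in vehicle 1 to 3. Doxorubicin 1 lay among the vehicle libraries and the other doxorubicin libraries lay above them. Its log2 fold change was 0.92 (SE 0.34), with an edgeR adjusted p of 0.0735, so CD14 did not pass. It did pass with library size as the only scaling (edgeR adjusted p = 0.0249), in DESeq2 (adjusted p = 0.0349), with the replicate block (edgeR adjusted p = 0.0491) and without doxorubicin 1 (edgeR adjusted p = 0.0324). Over its alternatives the adjusted p ran from 0.0249 to 0.243.

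TREM2 (chromosome 7, 36465921 to 36471509, minus strand) had 10, 45, 70, 14 and 132 reads in doxorubicin 1 to 5, against 0, 1 and 0 reads in vehicle 1 to 3. In CPM these were 0.546, 2.27, 3.27, 0.726 and 6.60 after doxorubicin, and 0, 0.0693 and 0 in vehicle. Every doxorubicin library held at least 10 reads, and no vehicle library held more than 1. TREM2 passed the test (edgeR adjusted p = 0.0120). The size of the change is poorly fixed by 1 vehicle read: the ratio of scaled read rates was 116, with an exact 95% interval of 20.7 to 4616 that covers counting error only. The fitted log2 fold change of 6.46 (SE 1.34) depends on the prior count, and it was 8.61 without vehicle 2, the library that holds the only vehicle read.

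GPNMB (chromosome 9, 92037428 to 92071501), a transmembrane glycoprotein of lysosome-rich phagocytes, had 23.2, 11.11, 52.2, 4.56 and 33.8 CPM in doxorubicin 1 to 5, against 3.14, 5.76 and 2.92 CPM in vehicle 1 to 3. Doxorubicin 4 was inside the vehicle range, and the other 4 doxorubicin libraries were above it. GPNMB averaged 24.96 ± 18.9 CPM after doxorubicin and 3.94 ± 1.58 CPM in vehicle (SD, n = 5 and n = 3). It rose 6.33-fold (log2 fold change 2.66, SE 0.73, edgeR adjusted p = 0.0295). GPNMB lost its call without any 1 vehicle library, without doxorubicin 5 (edgeR adjusted p = 0.0588) and with no filter on low counts (edgeR adjusted p = 0.0836).

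GPNMB is also expressed by melanocytes. Of 6 melanocyte markers, MLANA had 0 to 3 reads after doxorubicin and 0 reads in every vehicle library, and PMEL had 0 to 11 reads after doxorubicin and 0 to 2 in vehicle. TYR reached 42 reads in doxorubicin 5 and 2 to 4 reads in doxorubicin 1 to 4, against 0 to 3 reads in vehicle. The 6 summed to 2.83 to 7.26 CPM after doxorubicin and 2.50 to 4.02 CPM in vehicle. SOX10, which Schwann cells also express, was the 1 marker high enough to test and did not pass (edgeR adjusted p = 0.680). Of 7 fibroblast markers LUM, COL1A1, COL3A1 and POSTN rose and PDGFRA fell, and their sum was 2460 to 31363 CPM after doxorubicin and 1228 to 1435 CPM in vehicle, with all 5 doxorubicin libraries above all vehicle libraries. Higher calls made up 13.6% of all genes tested and lower calls 11.3%. POSTN and COL3A1 lost their calls with no filter and PDGFRA with library size only and with the gene density trend removed, and the list had 0 calls without any 1 vehicle library. The part of these cells in the GPNMB result was not tested.

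TYROBP (chromosome 6, 45309199 to 45312562, minus strand), the small adaptor that carries the signal of TREM2 and of several other myeloid and natural killer cell receptors, had 9.11, 19.6, 27.9, 11.05 and 34.9 CPM in doxorubicin 1 to 5, against 4.07, 5.27 and 7.25 CPM in vehicle 1 to 3. The groups did not overlap. TYROBP rose 3.71-fold, at 20.5 ± 10.97 CPM after doxorubicin and 5.53 ± 1.61 CPM in vehicle (SD, n = 5 and n = 3; log2 fold change 1.89, SE 0.47, edgeR adjusted p = 0.0200). Its doxorubicin libraries stood in the same order as those of TREM2, CD68 and MERTK, from doxorubicin 5 through 3, 2 and 4 to doxorubicin 1. MERTK (chromosome 3, 44349377 to 44483400, minus strand), a receptor kinase by which macrophages engulf dying cells, averaged 6.03 ± 2.15 CPM after doxorubicin and 4.15 ± 1.21 CPM in vehicle (SD, n = 5 and n = 3). The groups overlapped, and MERTK did not pass (log2 fold change 0.54, SE 0.35, edgeR adjusted p = 0.270).

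**Figure D2:**
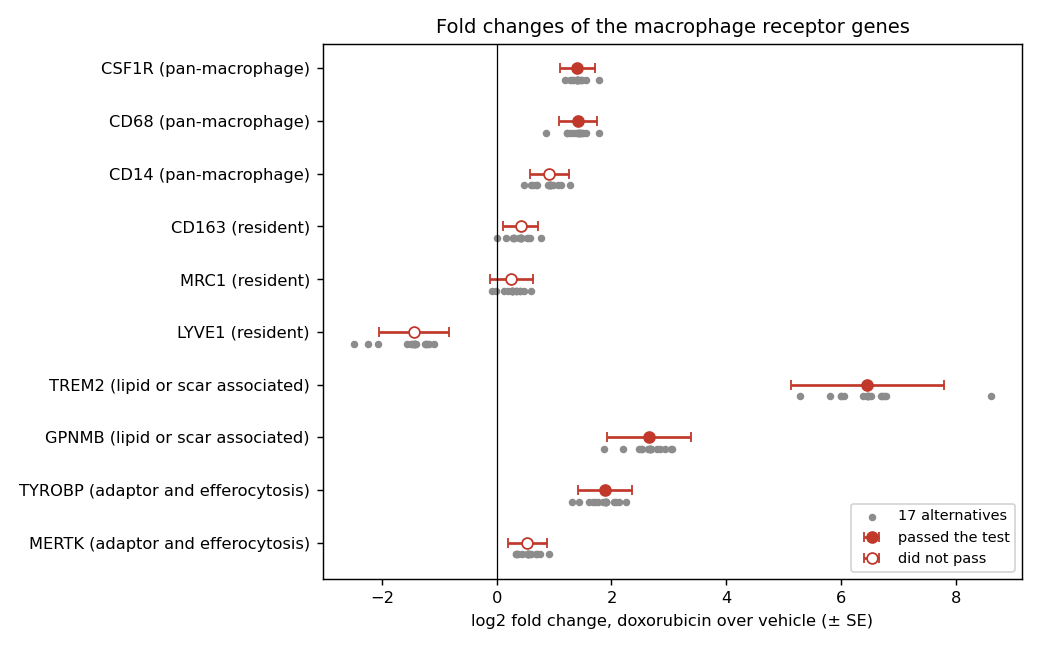
Log2 fold change of each gene, doxorubicin over vehicle, with its SE (large red points, filled where the gene passed edgeR's adjusted threshold and open where it did not) and the values under 17 alternative settings (small grey points). The 2 lipid or scar associated genes lie at 2.66 and above, the 3 resident genes between −1.44 and 0.42, and MRC1 is the only gene whose grey points lie on both sides of 0.

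None of the 3 resident markers passed the test in either direction. CD163 (chromosome 5, 63300200 to 63334497), the scavenger receptor for haemoglobin bound to haptoglobin, had 17.4, 36.1, 22.8, 42.4 and 44.0 CPM in doxorubicin 1 to 5, against 20.1, 24.1 and 28.9 CPM in vehicle 1 to 3. Doxorubicin 1 was below all vehicle libraries, doxorubicin 3 within them and the other 3 above them. Its log2 fold change was 0.42 (SE 0.31, edgeR adjusted p = 0.333). MRC1 (chromosome 10, 44107926 to 44226734), the mannose receptor, had 11.6, 17.5, 8.83, 27.1 and 8.60 CPM in doxorubicin 1 to 5, against 12.9, 9.99 and 14.1 CPM in vehicle 1 to 3. Doxorubicin libraries lay on both sides of the vehicle range. The log2 fold change of MRC1 was 0.26 (SE 0.38, edgeR adjusted p = 0.641), and it was −0.08 without doxorubicin 4.

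LYVE1 (chromosome 2, 48937357 to 48954206), a hyaluronan receptor of resident macrophages around vessels and of lymphatic endothelium, had 4.69, 0.960, 1.59, 10.3 and 3.85 CPM in doxorubicin 1 to 5, against 9.50, 14.7 and 10.6 CPM in vehicle 1 to 3. In 4 of 5 doxorubicin libraries it was below every vehicle library, and doxorubicin 4 was inside the vehicle range; separation toward lower values was seen for 17.8% of all genes tested and for 0 of the 10. The mean was 4.28 ± 3.71 CPM after doxorubicin and 11.6 ± 2.74 CPM in vehicle (SD, n = 5 and n = 3), a log2 fold change of −1.44 (SE 0.61) that did not pass (edgeR adjusted p = 0.109, unadjusted p = 0.0422). Without doxorubicin 4 it passed as lower, at −2.07 (edgeR adjusted p = 0.0215). With the replicate block LYVE1 was lower too (−2.48, edgeR adjusted p = 0.0227). Doxorubicin 4 and 5 have no vehicle library of their number, so that fit also leaves doxorubicin 4 out of the treatment effect. It passed as lower in limma voom with quality weights (−2.24, adjusted p = 0.00448), and over all its alternatives the adjusted p ran from 0.00448 to 0.261. Of 6 markers of lymphatic endothelium 1 passed, PROX1, which was lower (log2 fold change −0.75, SE 0.24, edgeR adjusted p = 0.0485). The call of PROX1 was lost with library size only, with no filter and without the gene density trend. With 1 library left out, its edgeR adjusted p reached 0.182. The 5 that did not pass had log2 fold changes of −1.28 (MMRN1), −0.39 (RELN), −0.18 (CCL21), 0.26 (FLT4) and 0.48 (PDPN). Lower calls made up 11.3% of all genes tested. The 6 lymphatic markers summed to 72.5 to 181 CPM after doxorubicin and to 149 to 175 CPM in vehicle. Their part in the LYVE1 values was not tested.

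Within each library the ratio of TREM2 or GPNMB to a resident marker leaves out most of the scaling between libraries. Ratios were taken as log2 of CPM + 0.5 for each of 6 gene combinations, and each group difference was tested by an exact two-sided permutation test, which has 56 arrangements here. The smallest p this design allows is 0.0357. TREM2 to LYVE1 was −0.59 ± 1.97 after doxorubicin and −4.51 ± 0.21 in vehicle, a difference of 3.92, and GPNMB to LYVE1 was 2.34 ± 2.12 after doxorubicin and −1.48 ± 0.21 in vehicle, a difference of 3.82 (SD, n = 5 and n = 3). TREM2 to CD163 was −3.64 ± 1.05 after doxorubicin and −5.56 ± 0.28 in vehicle, a difference of 1.91. For these 3 combinations all 5 doxorubicin libraries were above all vehicle libraries, with the smallest exact p, 0.0357, and an adjusted p of 0.0714 over the 6. For TREM2 to CD163 the exact permutation p was 0.0714 with library size only and 0.179 with a pseudocount of 2 CPM. TREM2 to MRC1 differed by 2.13 (exact permutation p = 0.0714), GPNMB to MRC1 by 2.03 (exact permutation p = 0.214) and GPNMB to CD163 by 1.82 (exact permutation p = 0.143), each with 4 of 5 doxorubicin libraries above all vehicle libraries. None of the 6 differences passed after adjustment. All were positive, but the combinations share genes, so that agreement in sign repeats the fold changes of the single genes. The differences for TREM2 depend on the pseudocount, since 2 of 3 vehicle libraries held no TREM2 read: TREM2 to CD163 was 3.69 with 0.1 CPM and 0.74 with 2 CPM added.

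**Figure D3:**
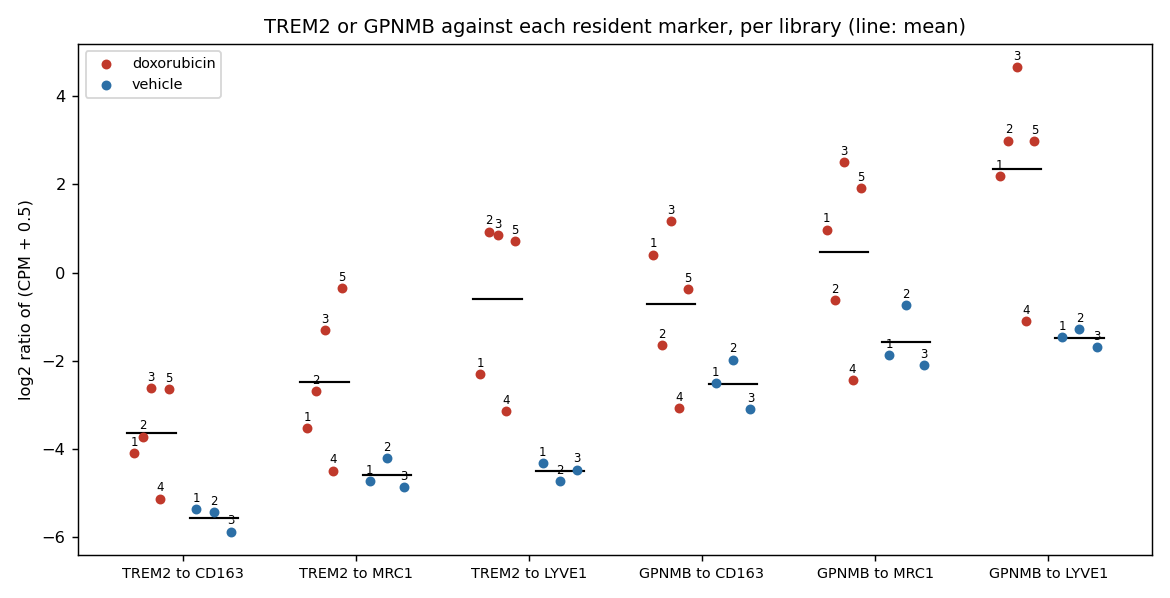
Log2 ratio of TREM2 or GPNMB to each of the 3 resident markers in each library, with doxorubicin libraries (red) left of vehicle libraries (blue), replicate numbers beside the points and a line at each group mean. Doxorubicin 4 is the lowest doxorubicin library in all 6 combinations.

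Divided by gene length, the level of TREM2 and GPNMB together was 7.73, 5.77, 19.5, 2.16 and 17.2 CPM per kilobase in doxorubicin 1 to 5, against 0.972, 1.85 and 0.902 in vehicle 1 to 3. On the same scale CD163, MRC1 and LYVE1 together had 8.47, 13.04, 8.19, 20.04 and 14.4 CPM per kilobase in doxorubicin 1 to 5, against 11.2, 13.6 and 14.1 in vehicle 1 to 3. TREM2 and GPNMB thus made up 47.7%, 30.7%, 70.4%, 9.72% and 54.4% of the 5 markers in doxorubicin 1 to 5, against 7.97%, 11.97% and 6.002% in vehicle 1 to 3. The share was above the vehicle range in 4 of 5 doxorubicin libraries and inside it in doxorubicin 4. These sums are descriptions and were not tested.

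The doxorubicin libraries also differed among themselves. Doxorubicin 5 was the highest doxorubicin library for 6 of the 10 genes (CD68, CD14, CD163, TREM2, TYROBP and MERTK), doxorubicin 3 for CSF1R and GPNMB, and doxorubicin 4 for MRC1 and LYVE1. Doxorubicin 1 was the lowest for 7 genes. Doxorubicin 4 had the highest MRC1 and LYVE1 together with the lowest GPNMB. Relative to the vehicle mean its values of log2(CPM + 0.5) were 1.12 for MRC1, −0.14 for LYVE1, 1.23 for TREM2 and 0.25 for GPNMB. In doxorubicin 3 the same values were −0.44 for MRC1, −2.51 for LYVE1, 2.85 for TREM2 and 3.62 for GPNMB. TREM2 had 0 to 0.0693 CPM in vehicle, so the 0.5 CPM added holds its values down and they cannot be compared in size with those of GPNMB. Leaving out doxorubicin 5, the library least like its group, left 4 of the 5 calls, with GPNMB lost.

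**Figure D4:**
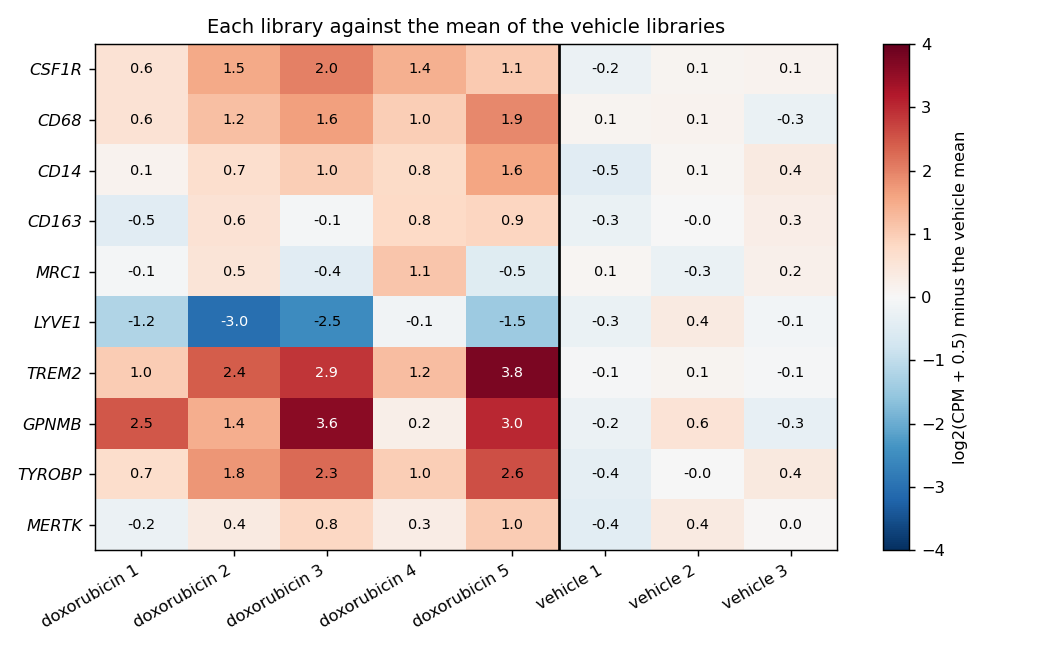
Log2 of CPM + 0.5 of each gene in each library minus the mean of the 3 vehicle libraries, with doxorubicin libraries left of the black line and vehicle libraries right of it (red higher, blue lower than the vehicle mean; values printed in the cells). TREM2 is above the vehicle mean in every doxorubicin library, by up to 3.77, and CD163 runs from −0.46 to 0.86.

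Compared per kilobase, TYROBP had the highest level of the 10 genes in both groups, at 34.9 ± 18.7 CPM per kilobase after doxorubicin and 9.42 ± 2.74 in vehicle. CSF1R came next in both, at 17.6 ± 6.45 after doxorubicin and 6.64 ± 0.970 in vehicle (SD, n = 5 and n = 3, for these and the following levels). After doxorubicin the order went on with CD68, CD14, CD163, GPNMB, MRC1, TREM2, LYVE1 and MERTK, and the CSF1R to CD68 step alone was wider than the larger SD of its neighbours. In vehicle the order went on with CD163, CD14, LYVE1, CD68, MRC1, GPNMB, MERTK and TREM2. There CSF1R and CD163 (6.27 ± 1.12), then CD14 (4.69 ± 1.38), LYVE1 (4.33 ± 1.02) and CD68 (4.05 ± 0.645), and GPNMB (1.22 ± 0.488) and MERTK (0.747 ± 0.217) lay within their spread of each other. LYVE1 and CD68, neighbours in vehicle, were at 1.599 ± 1.39 and 10.8 ± 4.07 CPM per kilobase after doxorubicin. TREM2, last in vehicle at 0.0237 ± 0.0411, was at 2.75 ± 2.53 after doxorubicin, beside MRC1 at 2.86 ± 1.51.

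Genes that act with these receptors were read from lists of known partners. Of 17 tested genes of TREM2 and TYROBP signalling 11 rose, 0 fell and 6 did not pass, with a median log2 fold change of 1.15, against 0.02 for all genes tested. The whole set of tested genes had 13.6% higher and 11.3% lower calls. INPP5D, a lipid phosphatase that restrains signalling from such adaptors, rose 2.602-fold (SE of log2 0.25, edgeR adjusted p = 0.00839), and PTPN6, a tyrosine phosphatase of blood cells, rose 2.22-fold (SE of log2 0.27, edgeR adjusted p = 0.0164), a call lost with the gene density trend removed. HCST, the sister adaptor of TYROBP, had 0.982 to 3.001 CPM after doxorubicin and 0 to 0.277 CPM in vehicle (edgeR adjusted p = 0.0136). Like TREM2, HCST passed the filter on low counts through the doxorubicin libraries alone, so its call adds nothing to the count of the other 10 genes that rose. PIK3CD, the leukocyte catalytic subunit of PI3 kinase, rose 2.46-fold (SE of log2 0.30, edgeR adjusted p = 0.0168), a call lost with the replicate block. ADAM10 and ADAM17, proteases that shed TREM2 from the cell surface, had log2 fold changes of −0.63 and −0.15 and did not pass. SIRPB1 was not found under its symbol. TREM1 was too low to test, with 0 to 3 reads after doxorubicin and 3 to 6 reads in vehicle. Leaving out vehicle 1, 2 or 3 left 1, 2 and 1 calls.

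Of 15 tested CSF1R ligands and lineage factors 10 rose, 0 fell and 5 did not pass (median log2 fold change 1.16), beside 13.6% higher among all genes tested. Both ligands of CSF1R were among the higher ones. CSF1 averaged 50.5 ± 16.96 CPM after doxorubicin and 22.6 ± 3.08 CPM in vehicle (edgeR adjusted p = 0.0168), and IL34 34.1 ± 4.44 CPM after doxorubicin and 15.1 ± 6.36 CPM in vehicle (SD, n = 5 and n = 3; edgeR adjusted p = 0.0136). CSF2RB, the shared chain of the GM-CSF, IL-3 and IL-5 receptors, rose 5.11-fold (SE of log2 0.40, edgeR adjusted p = 0.00765), and CEBPA, a transcription factor of the myeloid lineage, rose 5.01-fold (SE of log2 0.48, edgeR adjusted p = 0.0116). CSF2RA, among the 10 that rose, had 2 to 12 reads in vehicle and needed the doxorubicin libraries to pass the filter on low counts, so its call adds nothing to the count. CSF2 was too low to test. Without vehicle 1, 2 and 3 there were 1, 5 and 1 calls.

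Of 11 tested partners of CD14 1 rose, beside 13.6% higher among all genes tested. TICAM1, an adaptor of TLR3 and TLR4, was the gene that passed (2.20-fold, SE of log2 0.33, edgeR adjusted p = 0.0333), and it lost its call without the gene density trend and without any 1 vehicle library. The median log2 fold change was 0.50, and TLR4 had a log2 fold change of 0.26 (SE 0.24, edgeR adjusted p = 0.458). With library size only, 5 of the 11 passed as higher, in a fit where all genes tested had a median of 0.38.

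Among 17 genes of efferocytosis, the uptake of dying cells, 6 rose, 1 fell and 10 did not pass (median log2 fold change 0.29). The shares over all genes tested were 13.6% higher and 11.3% lower. TYRO3, a kinase of the same family as MERTK, rose 2.11-fold (SE of log2 0.27, edgeR adjusted p = 0.0198). LRP1, an endocytic receptor that many cell types express, rose 2.98-fold (SE of log2 0.32, edgeR adjusted p = 0.0116), STAB1, a scavenger receptor, 1.89-fold (SE of log2 0.22, edgeR adjusted p = 0.0171), and MFGE8, a secreted bridge to phosphatidylserine, 1.83-fold (SE of log2 0.20, edgeR adjusted p = 0.0158). GAS6, the ligand of MERTK, AXL and TYRO3, was picked out after its values were seen. It averaged 392.01 ± 45.5 CPM after doxorubicin and 236 ± 52.8 CPM in vehicle (SD, n = 5 and n = 3; edgeR adjusted p = 0.0286), and its call was lost once the gene density trend was removed. The 1 gene that fell was CD36, a fatty acid and lipoprotein receptor that heart muscle and endothelium also express (log2 fold change −1.05, SE 0.32, edgeR adjusted p = 0.0389). CD36 lost its call with library size only, with the gene density trend removed and without doxorubicin 2 or doxorubicin 3. TIMD4, among the 6 that rose, passed the filter on low counts through the doxorubicin libraries alone, so its call adds nothing to the count. Without vehicle 1, 2 and 3 the list had 1, 2 and 0 calls.

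Of 17 tested other genes often read in resident macrophages 5 rose, 1 fell and 11 did not pass (median log2 fold change 0.54). Over all genes tested 13.6% were higher and 11.3% lower. The 5 were C1QC (4.51-fold), C1QB (3.54-fold), C1QA (2.49-fold), SIGLEC1 and VSIG4, with edgeR adjusted p of 0.00807, 0.0135 and 0.0166 for the 3 chains of C1q, which many macrophages make. SELENOP, a selenium carrier that is not limited to macrophages, fell, at 293 ± 73.6 CPM after doxorubicin and 555 ± 33.9 CPM in vehicle (SD, n = 5 and n = 3; edgeR adjusted p = 0.0184), and did not pass with library size only. F13A1, FOLR2 and MS4A7 did not pass, with log2 fold changes of 0.54, 0.77 and 0.49. PF4 was not found under its symbol. Without vehicle 1, 2 and 3 the list had 0, 2 and 1 calls.

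Of 22 other lipid or scar associated genes 7 rose, 1 fell and 14 did not pass (median log2 fold change 0.82). Among all genes tested 13.6% were higher and 11.3% lower. The lysosomal proteases CTSD and CTSB averaged 492.6 ± 108 and 492.9 ± 141 CPM after doxorubicin, against 232 ± 57.1 and 248 ± 12.6 CPM in vehicle (SD, n = 5 and n = 3; edgeR adjusted p = 0.0162 and 0.0214). CTSL, another such protease, had 0.873 to 4.55 CPM after doxorubicin and 0.142 to 0.572 CPM in vehicle (edgeR adjusted p = 0.0136), and it too passed the filter on low counts through the doxorubicin libraries alone. ACP5 and ITGAX, also among the 7 that rose, had 3 to 14 and 9 to 27 reads in vehicle and needed the doxorubicin libraries to pass that filter. The calls of CTSL, ACP5 and ITGAX therefore add nothing to the count. FABP4, a fatty acid binding protein that fat cells and endothelium also express, fell, at 84.2 ± 47.3 CPM after doxorubicin and 320 ± 68.2 CPM in vehicle (SD, n = 5 and n = 3; edgeR adjusted p = 0.0141). APOE, a lipoprotein that TREM2 binds, was picked out after its values were seen. It had 18.9, 101, 233, 4.41 and 779 CPM in doxorubicin 1 to 5, against 1.21, 2.08 and 3.84 CPM in vehicle 1 to 3. All doxorubicin libraries were above vehicle, with doxorubicin 4 close to it and doxorubicin 5 far above the rest, and the fold change of 95.3 (SE of log2 1.75, edgeR adjusted p = 0.0272) was 37.6 and did not pass without doxorubicin 5. The fold change was 39.7 with the replicate block, where doxorubicin 4 and 5 add nothing to the treatment effect. It was 13.7 in limma voom, and the call was lost with no filter. SPP1, the osteopontin of scar macrophages, did not pass (log2 fold change 2.81, SE 0.94, edgeR adjusted p = 0.0553). Without vehicle 1, 2 and 3 the list had 1, 2 and 1 calls.

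**Figure D5:**
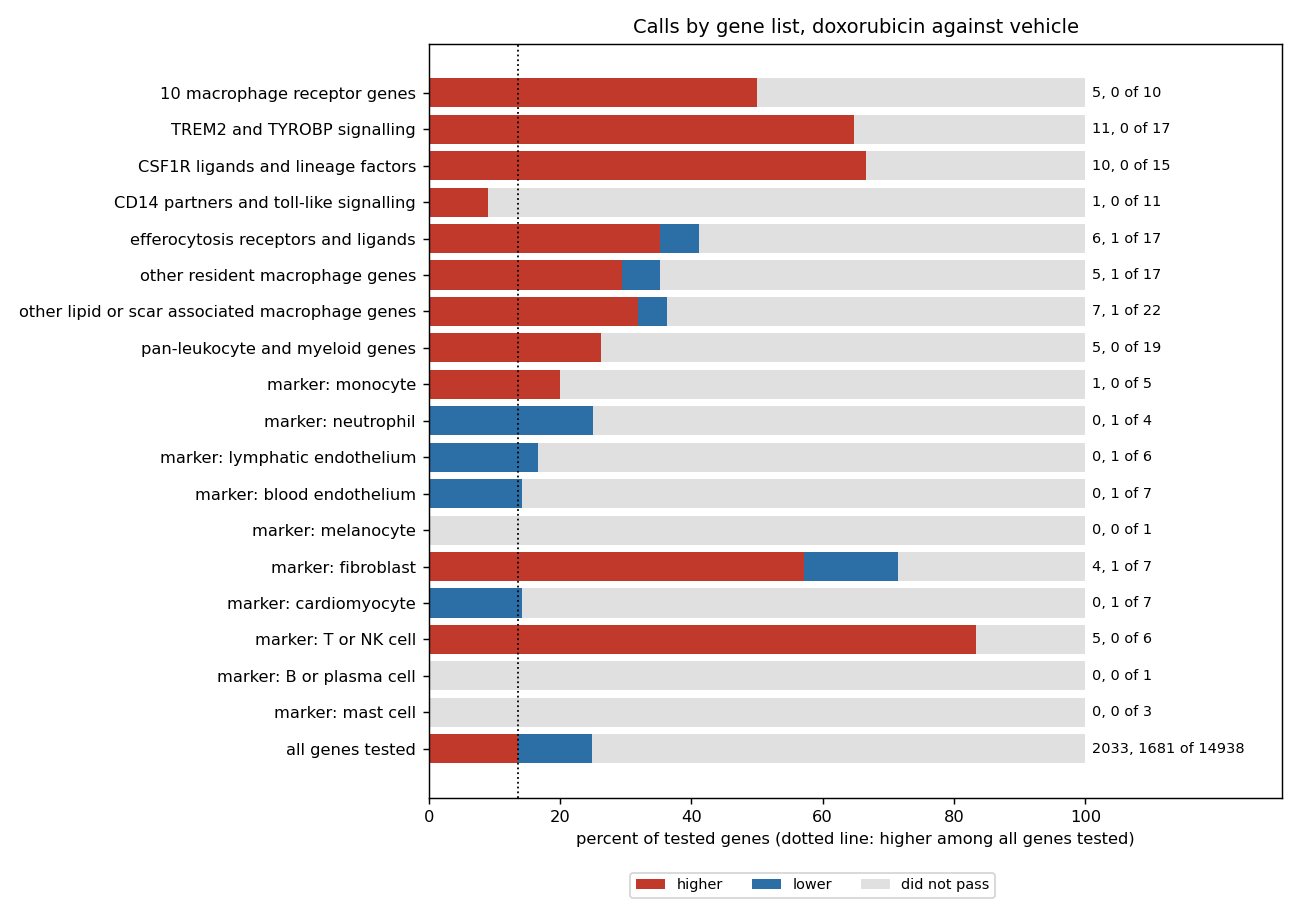
Share of tested genes that were higher (red), lower (blue) or did not pass (grey) after doxorubicin, for the 10 macrophage receptor genes, the lists of partner genes and cell type markers, and all genes tested. Numbers at the right are higher calls, lower calls and genes tested, and the dotted line marks the 13.6% higher among all genes.

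Lists for white blood cells gave mixed calls, and the first of them takes in genes that macrophages express too. All genes tested gave 13.6% higher and 11.3% lower calls. Of 19 pan-leukocyte and myeloid genes 5 rose, 0 fell and 14 did not pass (median log2 fold change 0.96), and their sum was 246 to 598 CPM after doxorubicin and 240 to 293 CPM in vehicle. CORO1A, an actin regulator of leukocytes, rose 3.14-fold (SE of log2 0.27, edgeR adjusted p = 0.00717), and PTPRC (CD45) had a log2 fold change of 0.51 and did not pass. Of 6 T or NK cell markers 5 rose, with sums of 12.99 to 31.6 CPM after doxorubicin and 6.001 to 9.31 CPM in vehicle. CD3D among them passed the filter on low counts through the doxorubicin libraries alone, and CD5, with 8 to 19 reads in vehicle, also needed them to pass it. The calls of CD3D and CD5 therefore add nothing to the count. The T or NK cell calls numbered 2 with the replicate block, where CD3E and CD5 were among those lost, 3 with no filter or with the gene density trend removed, and 0 to 6 with 1 library left out, the 0 without vehicle 1. Of 9 monocyte markers 5 could be tested, and VCAN, which fibroblasts also make, alone passed as higher (3.96-fold, edgeR adjusted p = 0.0468), and it lost its call with the replicate block, with no filter and without any 1 vehicle library or doxorubicin 2 or 3. Its fold in limma voom was 2.54. S100A8, S100A9 and S100A12 had at most 30 reads in any library. Of 8 neutrophil markers FCGR3B and CAMP were not found under their symbols, 4 could be tested and 0 rose. CXCR2 was lower, and it passed the filter on low counts through the vehicle libraries alone, so its call adds nothing to the count. The 6 neutrophil markers found summed to 2.65 to 6.21 CPM after doxorubicin and 2.07 to 4.51 CPM in vehicle. The remaining marker lists gave 1 lower call (EMCN) among 7 blood endothelium genes, and 0 among 1 tested B or plasma cell gene and 3 tested mast cell genes, at an adjusted p under 0.05 in edgeR. The part of these cell types in the TYROBP, CD68 and CD14 values was not tested.

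The genes whose pattern over the 8 libraries was nearest to that of TREM2 were TMED3, PANX1, PAPPA, ISLR and CLSTN3, with root mean square distances of 0.19 to 0.25 on the centred log2(CPM + 0.5) scale among 13410 genes. TMED3, a cargo receptor of the secretory pathway, had 15.4 to 101.1 CPM after doxorubicin and 5.26 to 7.98 CPM in vehicle. PANX1, a membrane channel, had 0.819 to 5.25 CPM after doxorubicin and 0 to 0.143 CPM in vehicle. Nearest to CD163 were PRPS2, RP2, LOC100620198, HSP70.2 and PORCN, at 0.21 to 0.22. No gene of the 10 was among the nearest to TREM2 or to CD163. The 0.5 CPM added lifts the TREM2 vehicle values of 0 to 0.0693 CPM, so its nearest genes may differ with another pseudocount, which was not tried.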

How the data were processed

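Raw counts, whole numbers for every gene, were deposited by the authors with a gene length in bases, and columns were matched to samples by the titles in the labels. Per the labels' protocols, column-purified total RNA went into a SMARTER mRNA library kit. The sources used here do not name aligner, counter, versions or use of strand, and no other gene of the table overlaps any of the 10. Identifiers of 30335 genes matched RefSeq genes of Sscrofa11.1, all with the same start and end.

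Counts were fitted in R 4.3.3 with edgeR 4.0.16: filterByExpr (minimum count 10, minimum total 15), TMM scaling, robust quasi-likelihood test, treatment as the only term, two-sided, Benjamini-Hochberg adjusted over all 14938 genes. SE (log2) were derived from fold change and F. CPM are counts over TMM-scaled library size, and TMM factors were 1.05 to 1.18 after doxorubicin and 0.839 to 0.874 in vehicle. The fit was tested on simulated counts. Within groups, libraries differed by at least 18.5 times sampling noise (chi-square over its degrees of freedom).

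The members and lists were chosen with earlier results of these data known. Named were all members, up to 4 called genes with the smallest p in each list, and the 5 nearest profiles of TREM2 and CD163, while ADAM10, ADAM17, TLR4, APOE, GAS6, SPP1, TYR, SIGLEC1, VSIG4, F13A1, FOLR2, MS4A7, PTPRC and S100 genes were chosen after their values were seen. Also named outside that rule were CD36, LUM, TIMD4, CSF2RA, ACP5, ITGAX, CD3D, other melanocyte markers and the lymphatic markers besides PROX1. Some genes not found or too low to test were named as well. Alternatives were other scalings and filters, DESeq2 (1.42.0), voom with sample quality weights in limma (3.58.1), a replicate block, each library left out, and, added after the data were seen, a correction for gene density, counted as coding genes within 500 kb and fitted in each library by lowess with span 0.3. Doxorubicin 4 and 5 have no vehicle library of the same number, so the replicate block in effect leaves them out of the treatment effect. Permutation tests used scipy 1.17.1 and figures matplotlib 3.10.9.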

Additional observations from a re-analysis of the deposited data

How the results depend on the processing

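The signs of 9 of the 10 genes held in all 17 alternatives. MRC1 turned to −0.0069 with the replicate block and −0.083 without doxorubicin 4, and ran from −0.08 to 0.40 with 1 library left out. Calls among the 10 numbered 4 to 7 under the other scalings, filters, tools and the block, and 0 to 6 with 1 library left out. Calls among all genes numbered 3714 (2033 higher, 1681 lower), 8087 in limma voom with quality weights, 4592 (4093 higher, 499 lower) with library size only, which moved the median log2 fold change of all genes from 0.02 to 0.38, and 649 to 4737 with 1 library left out. The low ends are fits with 2 vehicle libraries. Of 38 partner and marker genes called and eligible for naming, 4 passed whichever library was left out. Over the alternatives, higher calls ran from 1 to 12 for TREM2 and TYROBP signalling, 1 to 13 for CSF1R ligands and lineage factors, 0 to 5 for CD14 partners, 0 to 8 for efferocytosis, 0 to 9 for other resident genes, 1 to 10 for other lipid or scar associated genes and 1 to 10 for pan-leukocyte genes. With 1 library left out, the ratio difference was 1.66 to 2.29 for TREM2 to CD163, 1.597 to 2.63 for TREM2 to MRC1, 3.54 to 4.55 for TREM2 to LYVE1, 1.35 to 2.41 for GPNMB to CD163, 1.52 to 2.76 for GPNMB to MRC1 and 3.25 to 4.68 for GPNMB to LYVE1. The smallest exact p is then 0.0571 or 0.0952.

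Same-numbered libraries showed little sign of pairing: their deviations correlated at 0.043, 0.0020 and −0.0031, and 3 of 6 libraries matched their own number best. Vehicle 1 was the best match of all 3 doxorubicin libraries compared. With 3 couples the check cannot settle whether the numbers pair the libraries. The replicate block, where doxorubicin 4 and 5 add nothing to the treatment effect, gave 3638 calls among all genes. Among the 10 it gave 7 (6 higher, and LYVE1 lower). Over 3 same-numbered couples the ratio differences were 2.08 to 4.76 with the smallest exact p that 3 allow, 0.25.

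With 1 TREM2 read in 3 vehicle libraries, the counting interval of its ratio is 20.7 to 4616, for counting error only.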
